A study of Mus musculus with 5 samples.

Results

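The expression of LLC tumors treated with the low-dose combination was compared with that of untreated tumors. LLC is the Lewis lung carcinoma line of C57BL/6 mice. The combination joins BMN, which is talazoparib, an inhibitor of PARP enzymes, with PAZA, a polymer that carries azacytidine, an inhibitor of DNA methyltransferases. PAZA also serves as the carrier of BMN. The series holds 5 libraries, 1 each for Control, BMN, PAZA, BMN/PAZA_Low_dose and BMN/PAZA_High_dose, and 2 of the 5 were compared here. According to the labels these were LLC cells treated for 72 h in culture, whereas the study's text describes tumor tissue from mice. No deposited table pairs the low-dose library with Control, so the columns were taken from separate tables and limited to the 13979 symbols found in both, of 16155 in the low-dose table and 20236 in the Control table. Each column was scaled to a sum of 1000000 over these symbols, and values are given as scaled FPKM (fragments per kilobase, scaled to the library). The log2 ratio is that of the low dose to Control with 1 added to both, which understates the change of weakly expressed genes. Since each group is a single library, no difference below could be tested against the error between replicates.

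PARP enzymes attach ADP-ribose to proteins at broken DNA and help to repair it. DNA methyltransferases copy methyl marks onto cytosine during replication, and azacytidine traps them on DNA, so that marks are lost as cells divide and genes they silence, such as germline genes, can be transcribed. Unrepaired DNA in the cytosol and transcripts of silenced repeats can both trigger sensors that lead to interferon. Interferon acts through STAT factors on short promoter motifs and turns on antiviral genes, antigen presentation and chemokines that attract T cells.

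Of the 13979 symbols, 13832 had a value above 0 in either library, and 11490 (83.1%) reached 1 in either. The median log2 ratio over the 13832 was −0.034, and 52.8% were lower in the low dose. At least 2-fold higher in the low-dose library were 505 symbols (3.65%), and 489 symbols (3.54%) were at least 2-fold lower, while 92.8% lay within 2-fold. Leaving the most abundant 1% of symbols out of the scaling sum gave 1080 higher and 609 lower, so that 63.9% rather than 50.8% of the calls were higher. The ratios of 90% of symbols lay between −0.88 and 0.87. In scaled units 1 low-dose fragment weighed 1.04 times 1 Control fragment, by the most frequent ratio among 917 weakly expressed symbols. The depth of either library is unknown, since no counts were given.

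The 5 libraries differ in treatment with 1 library each, so the spread between them mixes treatment with the error of single libraries. Among 11133 symbols of at least 1 whose values did not differ between tables, Control was the highest of the 5 libraries for 22.8% and the lowest for 15.5%, and the low dose was the highest for 19.3% and the lowest for 15.6%. Of the 464 of these at least 2-fold lower in the low dose, Control was the highest of the 5 for 304 and the low dose was the lowest for 250. Of the 488 at least 2-fold higher, Control was the lowest for 319 and the low dose the highest for 333. A difference from Control can therefore sit with the Control library, with the low-dose library or with both, and the value in the other 3 libraries is given below where it bears on this. The call uses 2 of the 5 values, which raises the shares at either end among called symbols. For a list far from Control, the same selection raises its share above that over all symbols.

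The low-dose library was deposited in 3 tables, and for most symbols its values in them differ only by a constant factor. For 382 of the 13832 symbols the low-dose or PAZA values departed from that constant by more than 0.5%, and these 382 include 31 of the 44 measured interferon-stimulated genes. All low-dose values used here were taken from the table with the high dose. In that table, 15493 of the 15495 values above 0 had at most 6 significant digits after division by 3.6, and a common factor of this kind drops out when the column is scaled. In the tables with BMN and with PAZA, a low-dose value of more than 6 digits occurred in 144 and 130 of the symbols that differ between tables and in 0 of the 21748 and 21752 others. The Control column held 0 such values. Symbols that differ between tables are marked as such below.

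**Figure D1:**
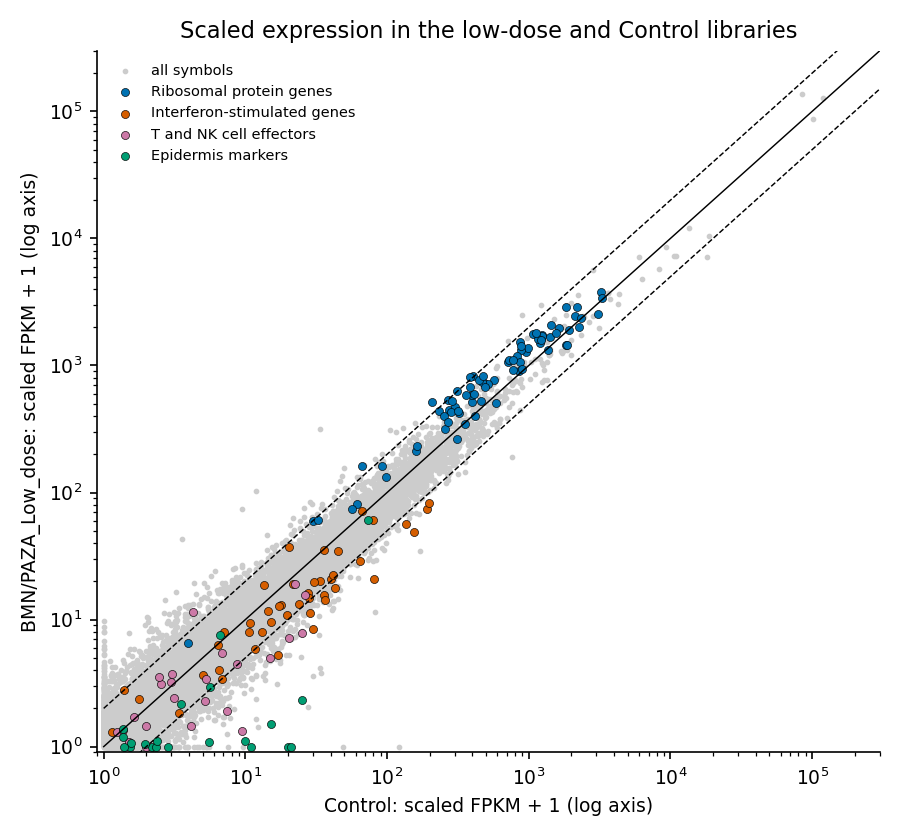
Scaled FPKM plus 1 in the Control library (x axis, log scale) and in the low-dose library (y axis, log scale), with 1 point per symbol. The solid line marks equal values and the dashed lines a 2-fold difference. Most ribosomal protein genes lie above the solid line, and most interferon-stimulated, T and NK cell and epidermis genes lie below it.

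Markers of lung epithelium, leukocytes and endothelium were checked in both libraries. Of 15 lung epithelium markers only 4 were in both tables, and the highest, the aspartic protease Napsa, had 2.95 scaled FPKM in Control and 1.19 in the low dose. Napsa was thus low in both libraries, and the listed surfactant genes Sftpa1, Sftpb, Sftpc and Sftpd were not among the shared symbols. Leukocyte and endothelial genes were present in both libraries. Ptprc, which encodes the leukocyte phosphatase CD45, had 36.6 in Control and 27.0 in the low dose (log2 ratio −0.43). The macrophage mannose receptor Mrc1 had 189 and 188, and the endothelial adhesion gene Pecam1 had 18.7 and 15.2. Where cell types are mixed, fewer cells of a type and less RNA per cell cannot be told apart.

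Most interferon-stimulated genes were lower in the low-dose library than in Control in the table used here. Of 45 listed genes 44 had a value, 37 of them lower and 7 higher, with a median log2 ratio of −0.74 against −0.034 over all symbols. The median depends on the table the low-dose value is taken from, and was −0.23 with the table with PAZA and 0.17 with the table with BMN. For 27 of the 44 genes, the PAZA value in the table with PAZA, times the low-dose constant, equalled the low-dose value used here within 0.2%. At least 2-fold lower were 13 of the 44 (29.5%), and 1 was at least 2-fold higher. The antiviral effectors had a median of −0.71 over 24 genes, with 3 at least 2-fold lower, but 18 of the 24 differed between tables. The other 6 effectors had a median of 0.071, with 3 lower and 0 at least 2-fold lower. The regulators and gamma-induced GTPases had a median of −1.03 over 20 genes, with 10 at least 2-fold lower, and the 7 of them that did not differ between tables were all lower, with a median of −1.37. Together the 13 members whose values did not differ between tables had a median of −0.93, and 6 of them were at least 2-fold lower. These 6 are all GTPases induced by interferon gamma, which attack the vacuoles of intracellular microbes.

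The promoters of 4 of these 13 genes are shown because the motifs through which interferon acts can be read in them. The sequences come from RefSeq on build GRCm38.p6 and run from 250 bases before the start of the gene to 50 after it. Capitals mark the core of the interferon-stimulated response element (GAAA, any 2 bases, GAAA) and the gamma-activated site (TTCNNNGAA), on either strand.
Gbp2, chr3:142620413-142620712, plus strand: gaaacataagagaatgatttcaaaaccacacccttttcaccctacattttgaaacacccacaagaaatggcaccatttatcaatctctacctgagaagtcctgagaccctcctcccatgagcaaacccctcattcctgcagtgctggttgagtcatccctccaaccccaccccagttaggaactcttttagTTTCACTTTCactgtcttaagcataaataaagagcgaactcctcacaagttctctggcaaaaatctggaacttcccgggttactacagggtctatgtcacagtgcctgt
Gbp5, chr3:142496684-142496983, plus strand: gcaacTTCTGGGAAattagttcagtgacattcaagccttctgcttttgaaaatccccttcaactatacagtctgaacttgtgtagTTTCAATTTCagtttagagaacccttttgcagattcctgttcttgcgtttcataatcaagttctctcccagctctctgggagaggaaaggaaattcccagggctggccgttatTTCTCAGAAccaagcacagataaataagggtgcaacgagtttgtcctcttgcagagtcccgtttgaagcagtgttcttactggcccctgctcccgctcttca
Igtp, chr11:58199306-58199605, plus strand: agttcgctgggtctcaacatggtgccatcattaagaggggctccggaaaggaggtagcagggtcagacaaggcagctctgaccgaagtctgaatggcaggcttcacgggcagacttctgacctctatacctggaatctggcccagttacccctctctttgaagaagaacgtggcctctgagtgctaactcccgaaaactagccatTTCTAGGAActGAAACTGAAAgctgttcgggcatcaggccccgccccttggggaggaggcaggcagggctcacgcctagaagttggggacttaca
Oas1g, chr5:120887564-120887863, minus strand: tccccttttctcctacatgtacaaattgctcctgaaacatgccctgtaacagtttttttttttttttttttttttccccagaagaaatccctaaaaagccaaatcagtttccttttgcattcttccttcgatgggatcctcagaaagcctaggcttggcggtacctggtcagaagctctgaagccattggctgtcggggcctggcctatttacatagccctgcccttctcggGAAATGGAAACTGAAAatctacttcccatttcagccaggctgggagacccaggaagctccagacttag

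The response element core was present in 20 of 33 list members with a promoter in the reference (60.6%), against 419 of 10658 symbols with a promoter (3.93%). The gamma-activated site was present in 12 of the 33 (36.4%) and in 889 of the 10658 (8.34%). Among the 11 of these members whose values did not differ between tables, 9 held the response element core. The motif was present in Gbp2, which was lower, and in Oas1g, which was higher, and a match is a description of the sequence only.

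Gbp2, a guanylate-binding protein, had 154 scaled FPKM in Control and 47.7 in the low dose, a log2 ratio of −1.67. Its relatives on chromosome 3 had 15.9 and 4.26 (Gbp5), 42.2 and 16.9 (Gbp7) and 35.0 and 14.5 (Gbp3). Igtp, an immunity-related GTPase of chromosome 11, had 35.5 and 13.1, and Irgm1 had 27.1 and 13.8. Iigp1, of the same GTPase family, showed the largest difference in the list, with 80.5 in Control and 19.8 in the low dose (−1.97). For all 7 of these genes the Control library was the highest of the 5. Gbp2 had 44.8 in BMN, 63.0 in PAZA and 32.3 in the high dose, and Iigp1 had 23.8, 49.7 and 13.8. Over the 12 members of at least 1 whose values did not differ between tables, Control was the highest of the 5 libraries for 9 (75%). The share was 22.8% over all such symbols and 65.5% over those at least 2-fold lower. The low dose was the lowest for 2 of the 12. The exceptions in direction included Oas1g, a 2′-5′ oligoadenylate synthetase, with 0.384 in Control and 1.78 in the low dose.

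The other 31 members had a low-dose value that differed between tables. Irf1, a transcription factor induced by interferon gamma, had 198 scaled FPKM in Control, and its low-dose value was 81.6 from the table used here, 124 from the table with PAZA and 163 from the table with BMN. Irf7, which amplifies the type I response, had 62.9 in Control and 27.9, 41.8 and 97.6, so that the table with BMN placed it above Control. Rtp4, an interferon-induced transmembrane gene, had 29.0 in Control and 7.37, 17.9 and 14.7. For 27 of the 44 genes the low-dose value in the table with BMN was 2 times that in the table used here within 0.2%, and for 3 it was 3.5 times. Which of these values the library gave was not tested. For 27 genes the PAZA value in the table with PAZA equalled the low-dose value used here, after the low-dose constant. Whether the low-dose and PAZA columns of that table were exchanged for these genes was not tested. Only for the other 13 members is the value the same in all 3.

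**Figure D2:**
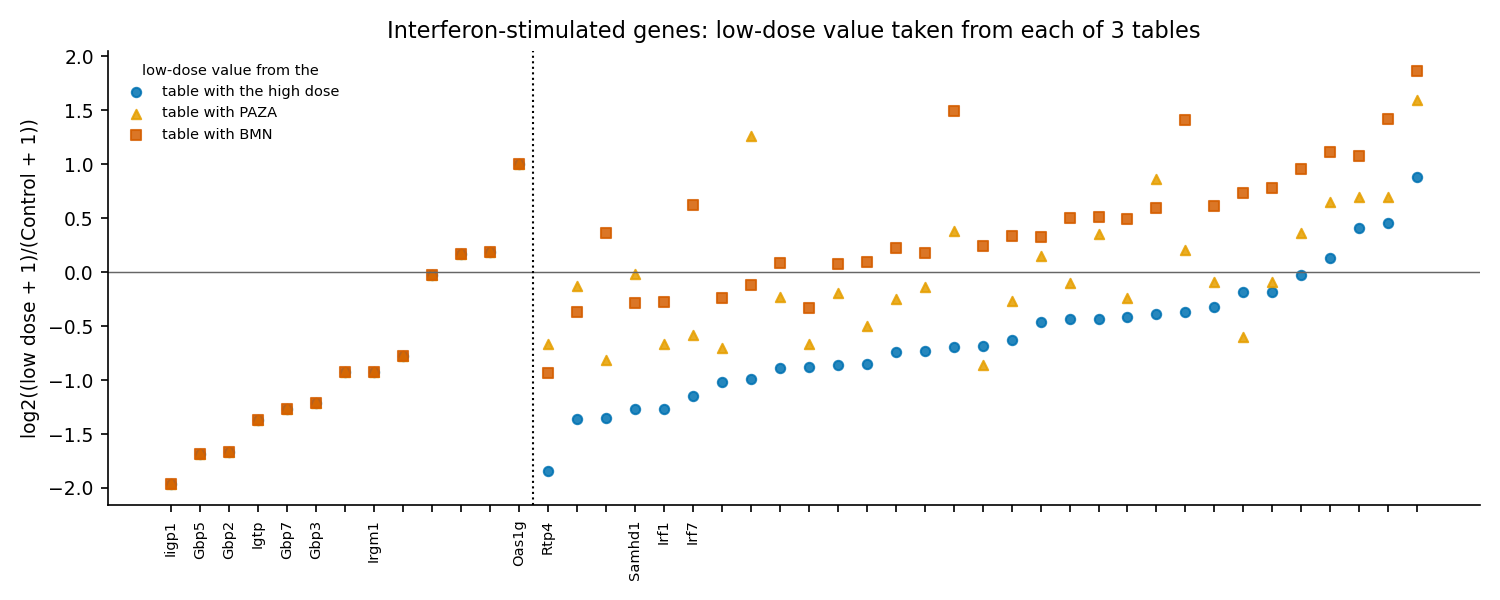
The log2 ratio of the low dose to Control for 44 interferon-stimulated genes (x axis, those named in the text labelled), with the low-dose value taken from each of 3 tables and brought to 1 scale by the constant between tables. Left of the dotted line the 3 values coincide for 13 genes, among them Gbp2 at −1.67, and to its right the table with BMN gives higher ratios for 31 genes, with Irf7 at 27.9 scaled FPKM in the table used here and 97.6 in the table with BMN.

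Sensors of nucleic acids had a median of −0.092 over 17 genes, with 0 at least 2-fold in either direction. The direction depends on the table, and the median was 0.27 with the table with PAZA and 0.35 with the table with BMN. Irf3, the factor that sensors activate first, had 8.82 in Control and 17.8 in the low dose, and Ifi204, a nuclear DNA sensor, had 180 and 106 (−0.76). Irf3 was 1 of 9 among the 17 that differed between tables, with a log2 ratio of 0.94 here, 1.19 in the table with PAZA and 1.69 in the table with BMN, and Ifi204 did not differ.

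Antigen presentation was lower at some class I genes and near Control at others. The 23 genes of MHC class I had a median of −0.19, with 17 lower and 1 at least 2-fold lower. This gene was Nlrc5, the transactivator of class I genes, with 64.6 and 28.2 scaled FPKM. B2m, the light chain of class I, had 18705 in Control and 10491 in the low dose (−0.83). Both differed between tables. With the table with BMN the ratio of Nlrc5 was −0.22, and the B2m value, 20983, was above Control. For all 9 class I genes that differed, the value in that table was 2 times the value used here within 0.2%. For the same 9, the PAZA value in the table with PAZA, times the low-dose constant, equalled the low-dose value used here. Of the heavy chains, which did not differ between tables, H2-K1 had 1277 and 922 (−0.47), whereas H2-D1 had 406 in both libraries. Among class II genes, which antigen-presenting cells express, H2-Ab1 had 118 and 50.1 (−1.22), H2-Eb1 had 25.1 and 12.3 (−0.97) and H2-DMa, a peptide-loading chain, had 3.73 and 7.02 (0.76). The low dose was the lowest of the 5 libraries for 3 of the 6 class II genes of at least 1 that did not differ between tables, against 15.6% of all symbols. Cd274, which encodes the checkpoint ligand PD-L1, had 20.4 and 10.4 (−0.91) but differed between tables, with a ratio of −0.14 in the table with PAZA and near 0 in the table with BMN. The Cd274 value in the table with BMN, 20.7, was also 2 times the value used here. The 21 immune checkpoint genes had a median of 0.065, and 0 of them were at least 2-fold higher or lower.

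Chemokines and cytokines had a median of −0.0035 over 43 genes. At least 2-fold higher were 5 (11.6%, against 3.65% of all symbols), and 2 were at least 2-fold lower (4.65%, against 3.54%). Of the 43 genes 13 differed between tables, and the median was 0.13 with the table with PAZA and 0.26 with the table with BMN. Cxcl9, which interferon gamma induces and which attracts T cells, had 80.5 in Control and 10.5 in the low dose, the largest difference in the list (−2.83). Its low-dose value was 57.8 in the table with PAZA and 20.9 in the table with BMN, below Control in all 3. Il10, an anti-inflammatory cytokine, had 1.56 in Control and was listed at 0 in the low dose. The 5 higher genes were Tgfb2, Cxcl14, Ccl17, Ccl4 and Ppbp. Cxcl14, a chemokine of epithelia and fibroblasts, had 1.37 in Control and 6.21 in the low dose, and Ccl17, which attracts CCR4-bearing T cells, had 2.99 and 9.70. Ccl4 differed between tables, with a ratio of 1.20 here and 1.85 in the table with BMN. Ccl9, a chemokine for myeloid cells, was abundant in both libraries, at 141 and 251 (0.83).

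Genes of cytotoxic lymphocytes were lower in the low-dose library. Of 24 T and NK cell genes with a value, 17 were lower (52.8% over all symbols), and the median was −0.46. At least 2-fold lower were 7 (29.2%, against 3.54% of all symbols). Prf1, the pore-forming perforin of killer cells, had 6.47 in Control and 0.906 in the low dose (−1.97). Trac and Trbc1, constant chains of the T cell receptor, had 8.53 and 0.339, and 3.15 and 0.456. Lck, the kinase of that receptor, had 4.21 and 1.28. Levels of the lineage genes were low in both libraries, with Cd8a at 0.990 and 0.465 and Cd4 at 0.515 and 0.0888, and Cd3e did not follow the rest, at 1.98 and 2.22. Klrd1, an inhibitory NK cell receptor chain, was the 1 gene at least 2-fold higher, at 3.27 and 10.5 (1.43). Summed over the list, the level was 160 in Control and 86.5 in the low dose, beside 88.5 in BMN, 99.6 in PAZA and 64.4 in the high dose.

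Granzymes, the proteases that killer cells deliver through perforin, stood among the symbols furthest below Control. Of 7 granzyme genes with a value, 6 lie in 1 cluster on chromosome 14 (56117619 to 56262334). Gzmf had 26.8 scaled FPKM in Control and 1.04 in the low dose (−3.77). Gzmd had 28.8 and 2.61 (−3.04), Gzmg had 32.7 and 3.16 (−3.02) and Gzme had 15.7 and 2.09 (−2.43). The log2 ratios of these 4 were below those of the other 3, Gzmb, with 19.2 and 6.17 (−1.49), Gzmc, with 24.2 and 6.80 (−1.69), and Gzma on chromosome 13, at −1.58. Gzma differed between tables, with −0.84 in the table with PAZA and −0.75 in the table with BMN, and the other 6 did not. The 7 genes together, Gzma included, had 161 in Control, 25.9 in the low dose, 35.7 in PAZA, 14.0 in BMN and 29.7 in the high dose. Control was thus the library that stood apart, and the low dose lay within the range of the other 3. Neighbouring granzymes are alike in sequence, and the division of shared reads among them by the authors' counting is not known.

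**Figure D3:**
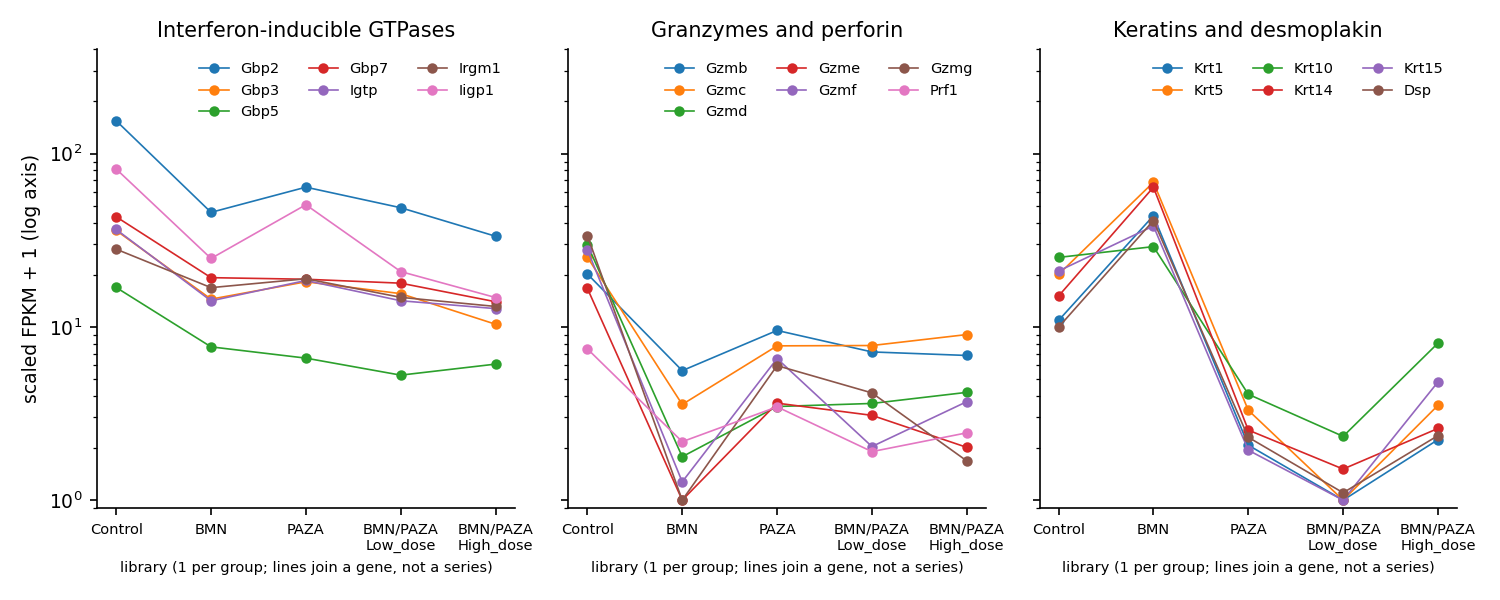
Scaled FPKM plus 1 (log axis) in each of the 5 libraries for interferon-inducible GTPases, granzymes with perforin, and keratins with desmoplakin. Control is the highest library for the genes of the first panel and the second panel, and in the third panel BMN is the highest and the low dose the lowest.

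Markers of other immune cells differed in direction. Macrophage and monocyte markers had a median of 0.11 over 26 genes, with 19 higher, whereas their summed level was 7233 in Control and 5889 in the low dose. Adgre1, which encodes F4/80, had 11.0 and 17.6 (0.63). Gpnmb, a lysosomal glycoprotein, was the 1 gene of the list at least 2-fold lower, at 35.6 and 17.0. Neutrophil markers had a median of 0.43 over 11 genes, and 9 were higher. Their calcium-binding gene S100a9 had 30.8 and 66.8 (1.09), and S100a8 had 35.8 and 48.7 (0.43). Both were also above Control in the high dose, at 93.2 and 132. Dendritic cell markers had a median of 0.18 over 8 genes, with 5 higher and 3 lower, and 3 of the 8 were under 1 in both libraries. At least 2-fold higher were 2 (25%, against 3.65% of all symbols). These were Cd209a at 0.386 and 3.57 and the migration receptor Ccr7, listed at 0 in Control and at 2.16 in the low dose. Mast cell markers had a median of 0.41 over 6 genes. B cell markers were at or under 2.13 apart from Xbp1, and 2 of 7 were at least 2-fold lower, Cd79a at 1.97 and 0.202 and Igkc at 2.13 and 0. Their median was 0.0073, and −0.99 among the members of at least 1. Of 9 leukocyte markers 6 were lower, with a median of −0.27.

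Vascular and stromal genes differed little. Endothelium markers had a median of 0.24 over 19 genes, 15 of them higher. Cdh5, the endothelial cadherin, had 5.67 in Control and 9.74 in the low dose (0.69), and Plvap had 2.50 and 5.31 (0.85). Control was the lowest of the 5 libraries for 9 of the 13 endothelium genes of at least 1, against 15.5% of all symbols. Pericyte and smooth muscle markers had a median of 0.21, with Acta2, the smooth muscle actin, lower at 6.20 and 2.36. Collagen and fibroblast genes had a median of −0.012 over 32 genes, and 0 were at least 2-fold in either direction. Matrix metalloproteinases and their inhibitors had a median of 0.15. Complement had a median of −0.094, which was near 0 with the tables with PAZA and BMN.

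Epidermis markers were the list furthest below Control. Of 21 with a value, 19 were lower (52.8% over all symbols), with a median of −1.10. At least 2-fold lower were 11 (52.4%, against 3.54% of all symbols). Of the keratin pair of basal keratinocytes, Krt14 had 14.1 in Control and 0.511 in the low dose, and Krt5 was listed at 0 in the low dose with a log2 ratio of −4.33. Krt1 and Krt10, the pair of the upper layers, had 9.89 and 24.2 in Control, and 0 and 1.33 in the low dose. The junction protein desmoplakin (Dsp) had 8.96 and 0.103. The summed level of Krt1, Krt5, Krt10, Krt14 and Krt15 was 87.2 in Control, 1.85 in the low dose, 8.94 in PAZA, 16.2 in the high dose and 238 in BMN. Among the 5 libraries the low dose was the lowest for 10 of the 15 epidermis genes of at least 1 (66.7%). The share was 15.6% over all symbols and 53.9% over those at least 2-fold lower. Perp, a p53 target that is also a component of epidermal junctions, went with them at 11.2 and 0.439. Sbsn, also an epidermal gene, had 72.0 and 60.0 and did not. The part of skin in these differences was not tested.

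Most markers of other tissues lay nearer to Control. Skeletal muscle markers had a median of −0.0015 over 24 genes, and their summed level was 48.9 in Control and 47.5 in the low dose, beside 132 in PAZA, 312 in BMN and 376 in the high dose. Adipocyte markers had a median of −0.085, with Scd1, a desaturase, at 217 and 117 (−0.88). Red cell and platelet markers had only 3 genes with a value, and their median of 0.62 was the highest of the 48 lists. The platelet chemokine Pf4 had 107 and 203 (0.92), whereas the heme synthesis gene Alas2 had 2.74 in Control and was listed at 0 in the low dose. Nerve markers had a median of 0.11 over 7 genes. Of the epithelial and mesenchymal genes, the median was −0.14 over 23, with Vim, the mesenchymal intermediate filament, at 2415 and 2470.2.

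**Figure D4:**
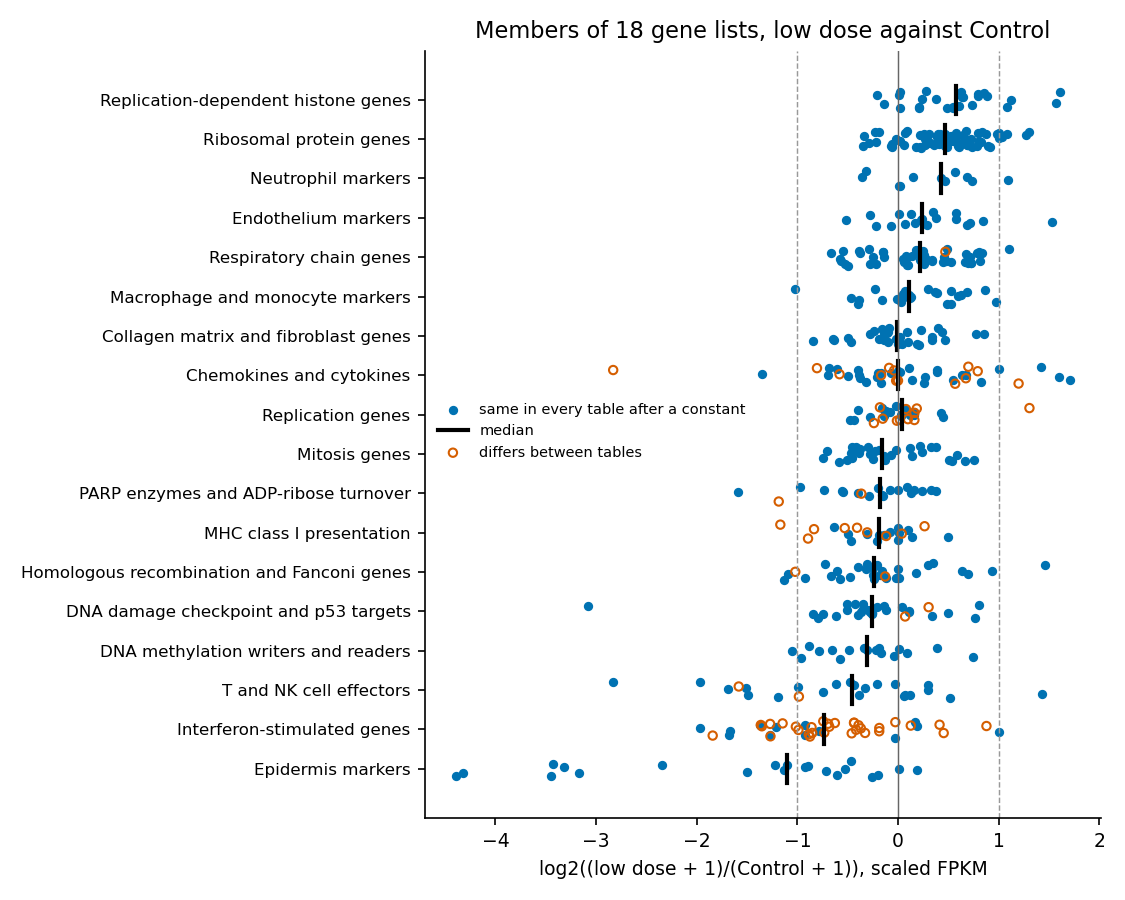
The log2 ratio of the low dose to Control (x axis) for each member of 18 gene lists (y axis), with the list median as a bar and dashed lines at 2-fold. Open circles are genes whose values differ between tables. The medians run from 0.58 for histone genes to −1.10 for epidermis markers.

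The writers and readers of DNA methylation were mostly lower, and their values did not differ between tables. Of 17 genes 13 were lower, with a median of −0.31, and 1 was at least 2-fold lower. Dnmt1, the methyltransferase that copies marks at replication and that azacytidine traps, had 155 in Control and 78.8 in the low dose (−0.97). Its partner Uhrf1, which brings it to newly copied DNA, had 81.2 and 71.0 (−0.19), and Dnmt3a, which sets new marks, had 9.18 and 7.07 (−0.34). Dnmt1 had 150 in BMN, 97.5 in PAZA and 52.7 in the high dose, so that it was lower in all 3 libraries that received PAZA and close to Control in BMN. Mbd1, a reader of methylated DNA, had 14.4 and 6.44 (−1.05), and the readers Mbd2 and Mbd3 had 104 and 65.9, and 21.8 and 11.4. The stress gene Gadd45b went the other way, at 11.8 and 20.3. Centred on transcripts of like length, the list median was −0.16.

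Germline genes are silenced by methylation in other tissues. Of 33 listed genes only 12 had a value in this comparison, 8 of them higher and 4 lower, with a median of 0.16, 0 at least 2-fold higher and 1 at least 2-fold lower. Tdrd9 and Piwil4, genes of the piRNA pathway, had 3.35 and 5.22, and 3.12 and 4.01. Tex101 had 5.99 and 9.64, and Rhox5, a homeobox gene of the X chromosome, was already abundant in Control at 1462 and had 1650.1 in the low dose. The 1 gene at least 2-fold lower was Tdrkh, at 2.49 and 0.295. The low dose was the highest of the 5 libraries for 4 of the 7 germline genes of at least 1, against 19.3% of all symbols. The Control table had no row for 2176 symbols of the low-dose table, and no Control value is given for these. The Control table held 0 rows at 0 in both of its libraries, and all 1886 of these symbols with a PAZA value in another table were at 0 in PAZA. The table of PAZA and the low dose also held 0 rows at 0 in both libraries, so that a symbol at 0 in PAZA could be listed there only with a low-dose value above 0. Among the listed were 5 germline genes. As deposited FPKM of that table, the low dose had 1.08 for Asz1, 0.385 for Tdrd12, 0.0757 for Piwil1, 0.0290 for Tdrd1 and 0.0251 for Tdrd6.

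Imprinted genes, of which methylation keeps 1 parental copy silent, had a median of 0.12 over 20 genes. At least 2-fold higher were 4 (20%, against 3.65% of all symbols). These 4 were the long noncoding RNAs Meg3, at 0.0350 and 1.45, and Rian, at 2.93 and 7.71, Nnat, at 0 and 1.35, and Kcnq1, at 0.538 and 2.17. Rian, from the same chromosome 12 domain as Meg3, also had 8.52 in PAZA, 5.70 in BMN and 9.51 in the high dose, and Control was the lowest library. H19 and Igf2 were among 10 of the 20 genes that were under 1 in both libraries. Summed over the list, the level was 248 in Control and 210 in the low dose.

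Genes that handle azacytidine showed a median of −0.18 over 18. Uridine kinases start its activation, and cytidine deaminase (Cda) breaks it down. Cda had 2.26 and 4.98 scaled FPKM (0.88) and the nucleoside carrier Slc29a1 had 3.80 and 2.17 (−0.60). Samhd1, which removes deoxynucleotide triphosphates, had 135 and 55.2 (−1.27). Cda and Samhd1 differed between tables, and the ratio of Samhd1 was −0.03 with the table with PAZA and −0.31 with the table with BMN.

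Of the PARP family and its partners, 13 of 20 genes were lower (52.8% over all symbols), with a median of −0.18. Centred on transcripts of like length, the median was −0.12. At least 2-fold lower were 2 (10%, against 3.54% of all symbols), and 1 of the 18 that did not differ between tables. Parp1, the main target of talazoparib, had 26.4 in Control and 25.0 in the low dose (−0.08). Parp2, which also answers to DNA breaks and is inhibited by the same drug, had 41.2 in Control and a log2 ratio of −1.59, and the low dose was the lowest of the 5 libraries. Parp2 had 18.9 in BMN, 22.9 in PAZA and 17.8 in the high dose, so that Control was again the highest. Parg, which removes poly-ADP-ribose, had 61.6 and 30.9 (−0.97), and Parp14, an interferon-induced member, had 32.3 and 13.6 (−1.18). Parp14 differed between tables, and its log2 ratio was −0.46 with the low-dose column of the table with PAZA and −0.26 with that of the table with BMN.

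Homologous recombination is the repair that cells without PARP activity depend on. Of 31 recombination and Fanconi genes 23 were lower (52.8% over all symbols), with a median of −0.24. Centred on transcripts of like length, the median was −0.12. At least 2-fold lower were 3 (9.68%, against 3.54% of all symbols), and 1 was at least 2-fold higher. Of the 18 recombination genes 17 were lower (median −0.24), and of the 13 Fanconi genes 6 were lower and 7 higher (median 0.012). Brca1, which organises the repair of breaks by recombination, had 37.7 in Control and 17.1 in the low dose (−1.10), and Fanci, of the Fanconi complex, had 11.4 and 4.69 (−1.13). Fancc was higher, at 0.699 and 3.66 (1.46), and Ube2t, the conjugating enzyme of the pathway, had 6.04 and 12.4 (0.93). The low dose was the lowest of the 5 libraries for 11 of 29 genes of the list (37.9%, against 15.6% of all symbols), Brca1 and Fanci among them. Other repair genes had a median of −0.073 over 40, of which 14 differed between tables, and 0.11 with the table with BMN. Among them were Rev1, a polymerase that bypasses damage, at 43.7 and 17.3 (−1.29) and the glycosylase Neil1 listed at 0 in Control and at 2.08 in the low dose.

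Genes of the damage checkpoint and p53 targets had a median of −0.26 over 29, 20 of them lower. Perp, described with the epidermis genes, was the 1 gene at least 2-fold lower. Cdkn1a, the p53-induced inhibitor of cyclin-dependent kinases, had 5.08 and 5.38, but its log2 ratio was 0.83 with the table with PAZA and 0.93 with the table with BMN. Mdm2, the ligase that degrades p53, had 57.1 and 40.0 (−0.50). Pmaip1, which encodes the death factor NOXA, had 1.52 and 3.39 (0.80).

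Proliferation genes kept close to Control. Replication genes had a median of 0.038 over 32, and 1 was at least 2-fold higher. This was Tyms, the thymidylate synthase, at 13.3 and 34.4 (1.31). Tyms was 1 of 11 that differed between tables, and its ratio was 0.75 with the table with BMN. Mitosis genes had a median of −0.16 over 30, with 0 at least 2-fold in either direction, and −0.063 when centred on transcripts of like length. Mki67, the proliferation marker, had 154 and 94.2 (−0.71), whereas Cdk1, the mitotic kinase, had 207 and 270 (0.38). For 11 of the 30 mitosis genes the low dose was the lowest of the 5 libraries, against 15.6% of all symbols. Cyclins of G1 and kinase inhibitors had a median of −0.098, with Ccnd3 at 9.52 and 4.76 (−0.87).

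Ribosomal protein genes were higher in the low-dose library. Of 79 genes 69 were higher, with a median of 0.47, and none differed between tables. At least 2-fold higher were 6 (7.59%, against 3.65% of all symbols). Rpl27 had 208 in Control and 515 in the low dose (1.31), and Rps14 had 65.9 and 160 (1.27). Together the 79 genes made up 6.64% of the scaled sum in Control, 8.34% in the low dose, 7.49% in PAZA, 5.71% in BMN and 6.51% in the high dose. The low dose was the highest of the 5 libraries for 60 of the 79 (75.9%). The share was 19.3% over all symbols and 68.2% over those at least 2-fold higher. Replication-dependent histone genes, most of whose messengers lack a poly(A) tail, had a median of 0.58 over 26 with 24 higher. H3c2 had 7.39 and 24.6 (1.61) and the abundant H2bc18 had 852 and 1005 (0.24). Control was the lowest of the 5 libraries for 16 of the 24 histone genes of at least 1, against 15.5%.

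The respiratory chain split by genome. Its 49 genes had a median of 0.22, with 34 higher. The subunits encoded in the nucleus were mostly higher, such as Ndufb8 of complex I, at 60.1 and 131 (1.11), and Cyc1 of complex III, at 16.3 and 30.0 (0.84). Those encoded in mitochondria were mostly lower, such as mt-Cytb, at 10903 and 7298 (−0.58), and mt-Nd4, at 3117 and 1959 (−0.67).

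The ratio was lower for longer transcripts over all genes, and 60 of the 79 ribosomal protein genes and 23 nuclear respiratory genes lay in the shortest bin of length. The histone symbols were not matched to a length, so that the trend was not examined for them. In 6 bins of the longest GENCODE transcript, the median log2 ratio was 0.17 from 94 to 1762 bases, 0.021, −0.020, −0.087 and −0.12 in the next 4 bins, and −0.15 from 5714 to 123179 bases. In the shortest bin 201 symbols were at least 2-fold higher and 106 lower, and in the longest 42 and 79. The medians of PAZA ran from 0.16 to −0.25 and those of the high dose from −0.015 to −0.25, whereas those of BMN ran from 0.028 to 0.10; all use the same Control library. Among symbols of at least 5 in the shortest bin outside the ribosomal, histone and respiratory lists, the median was 0.16 over 1405, beside 0.47 for the 60 ribosomal protein genes of that bin. Centred within the length bins, the median of the 79 ribosomal protein genes was 0.35 rather than 0.47, and that of the respiratory chain genes 0.10 rather than 0.22.

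**Figure D5:**
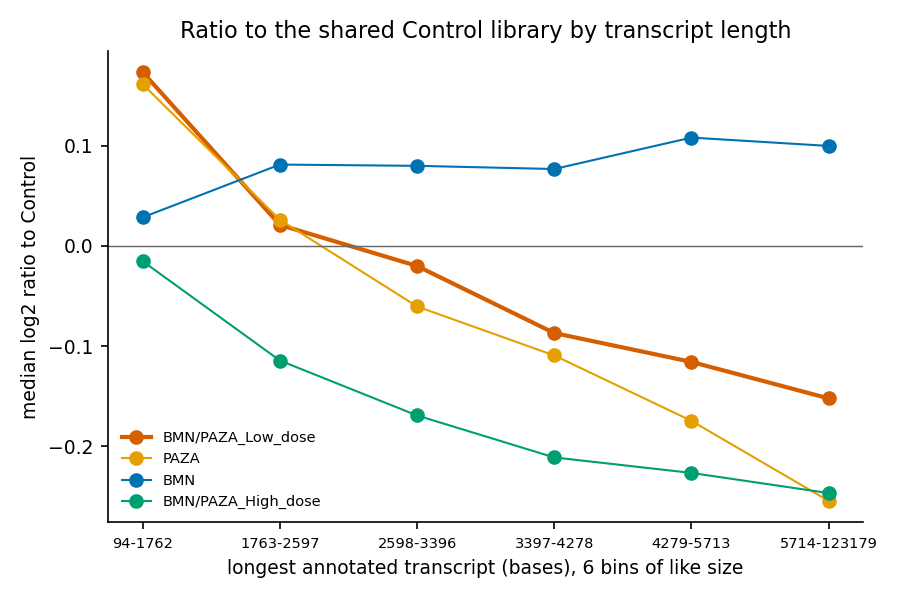
Median log2 ratio to Control (y axis) in 6 bins of like size by the longest annotated transcript (x axis, bases), for each of the 4 treated libraries, which share 1 Control library. The low dose falls from 0.17 to −0.15, and BMN stays between 0.028 and 0.11.

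Small structured RNAs held a large share of the values. Rn7sk, the 7SK RNA that restrains transcription elongation, made up 8.51% of the scaled sum in Control and 13.6% in the low dose. The mitochondrial ribosomal RNAs made up 22.1% and 21.6%. Of 37 small nucleolar and other structured RNAs of at least 10, 11 were at least 2-fold higher and 5 at least 2-fold lower, with a median of 0.51. Vaultrc5, the RNA of the vault particle, had 32.5 and 314 (3.24), and the nucleolar RNA Snora44 had 120 in Control and was listed at 0 in the low dose. Snora44 had 55.9 in BMN, 171 in PAZA and 177 in the high dose.

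Signaling, stress and metabolic lists stayed near Control. RAS-MAPK genes had a median of −0.0085 over 28. Hbegf, a ligand of the EGF receptor, had 14.9 and 35.1 (1.18). Immediate early genes had a median of 0.083, with the shear-stress factor Klf2 at 1.36 and 4.97 (1.34). Integrins and endocytosis genes had a median of 0.091 over 26, and 3 integrin chains were at least 2-fold higher. These were Itgb4, the partner of Itga6 in hemidesmosomes, at 1.21 and 7.06 (1.87), the laminin receptor chain Itga3 at 35.7 and 73.2 (1.01), and Itga7 at 1.60 and 4.96. The clathrin adaptor Ap2a1 was lower, at 27.4 and 11.0 (−1.25).

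The BCL2 family had a median of −0.23 over 18, with the death factor Bmf at 2.76 and 0.448 (−1.38). The integrated stress and unfolded protein responses had a median of 0.011 over 31, with 0 at least 2-fold in either direction. NRF2 targets had a median of −0.19, with Txnrd1, the thioredoxin reductase, at 187 and 115 (−0.70) and the iron-storage gene Ftl1 at 108 and 164 (0.60). Glycolysis and hypoxia genes had a median of 0.088 over 35, and none was at least 2-fold higher or lower. The low dose was nonetheless the highest of the 5 libraries for 16 of the 30 genes of the list that reached 1 and did not differ between tables (53.3%, against 19.3%). The glucose carrier Slc2a1 had 39.8 and 63.7 (0.66) and the lactate dehydrogenase Ldha had 438 and 577 (0.40), whereas Hk1 had 175 and 101 (−0.79). Cholesterol synthesis genes had a median of −0.011 and clustered protocadherins of −0.059, the latter near 0 in both libraries.

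Beyond the lists, the 20 highest and 20 lowest ratios were taken among 6617 symbols of at least 10 that did not differ between tables. The lowest held 4 granzymes, 4 keratins with Perp, 3 nucleolar RNAs, Iigp1 and Acod1. Acod1, which makes itaconate in activated macrophages, had 12.7 in Control and 2.34 in the low dose (−2.03). Among the highest, Mfsd10, a membrane transporter, had 8.49 in Control and 73.1 in the low dose (2.96), against 2.27 in BMN, 2.15 in PAZA and 4.41 in the high dose. S1pr2, a receptor of sphingosine 1-phosphate, had 1.87 and 10.1 (1.95) against 2.29 to 3.67 in the other 3, and the kinase Rps6ka1 had 2.15 and 10.5 (1.87) against 2.38 to 2.89. For these 3 genes the low dose stood apart from all 4 other libraries. Gng11, a G protein subunit of endothelium, had 1.70 and 13.2 (2.39), and Control was the lowest of the 5. The group also held Lgals7, an epidermal galectin, at 13.1 and 45.1 (1.71), which moved against the keratins, and the processed pseudogene Rps23-ps1, which can share reads with its parent gene, at 10.8 and 102 (3.13).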

How the data were processed

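The authors deposited 5 tables, each with 2 libraries and 1 value per symbol and no unit name. The deposited values were read as FPKM, made by the authors from aligned reads. The submitters' processing notes name HISAT2, StringTie and build GRCm38; versions are not given in the sources used here. The Control column of the table with PAZA and the low-dose column of the table with the high dose were reduced to shared symbols (the row of highest mean for a repeated symbol) and scaled. The log2 ratio used 1 as pseudocount, and a ratio of 2-fold was called. No test was run with 1 library per group. Of 1199 entries in 48 gene lists, 1092 were matched in both tables, 28 through another name.

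The comparison and the lists were chosen with earlier results of these data known. Named genes are, per list, up to 6 of at least 1 with the largest ratios and the 2 most abundant, and the 20 highest and lowest ratios. Defining markers and the others named (Gbp3, Gbp7, Irgm1, Oas1g, Irf7, H2-K1, H2-D1, Ppbp, Klrd1, Lck, Cd3e, Cd8a, Cd4, Parp1, Uhrf1, Dnmt3a, Cdkn1a, H19, Igf2, Rn7sk, mt-Nd4) were chosen after their values were seen. Some genes that the rule names are not reported here. The steps were tested on simulated data. Python 3.11.15, numpy 2.4.6, pandas 2.3.3 and matplotlib 3.10.9 were used.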

Additional observations from a re-analysis of the deposited data

How the results depend on the processing

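Over 9 alternatives, 8 of them planned and 1 (ratios centred within bins of transcript length) chosen after seeing the data, the count of symbols at least 2-fold higher (505) became 1503 with a pseudocount of 0.1 and 1080 with the most abundant symbols left out of the scaling, and the count lower (489) became 1088 with the pseudocount of 0.1. The epidermis median moved to −2.79 and −1.74 under these 2 settings, and the dendritic cell median to 0.83 with the pseudocount of 0.1. Among symbols of at least 1, the B cell median was −0.99 and the lung epithelium median −0.85, from fewer genes. The interferon-stimulated median was 0.17 with the low-dose column of the table with BMN and Irf7, at −1.15, was 0.60; the cause was not tested. The other medians moved by less than 1.5-fold. Several medians near 0 nonetheless changed sign, among them those of sensors, chemokines and other repair genes with the table with BMN. Of 141 named genes, 30 moved past 1.5-fold with the pseudocount of 0.1, 18 with the most abundant symbols left out, 8 with the table with PAZA and 12 with the table with BMN, beside Irf7. No paired analysis was possible because each group has 1 library. Depth is unknown, and low values carry a counting error that could not be given.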
